A study of Mus musculus with 6 samples.

Results

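The human lincRNA probes of this mouse array are 1217 spots whose probe names begin with humanlincRNA and carry a catalogue number, a + or - sign for the strand and the suffix P1. They were chosen by that name among the 59994 spots of the array that were neither scanner controls nor negative controls. The 1217 probes cover 609 catalogue entries with numbers between 2 and 2514. Of these entries, 608 were probed on both strands, with 1 probe per strand, and 1 (humanlincRNA2126-_P1) on the - strand alone. The value table that the authors deposited had a row for 647 of the 1217 probes (53.2%), against 80.7% of all 59994 spots, and these rows were 317 + strand and 330 - strand probes. Of the 570 probes without a row, 524 were called well above background on no scanned array, 45 on 1 array and 1 on more than 1. The files used here give no probe sequence, genome position or host gene for these entries, and they do not say whether a probe carries human or mouse sequence, so each one is called by its catalogue name.

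Long intergenic non-coding RNAs (lincRNAs) are long transcripts made between protein-coding genes, often capped, spliced and polyadenylated like messenger RNA but with little or no capacity to code for protein. Many are made in few tissues, and brain is among the tissues richest in them. Their sequence is in general weakly conserved between mammals, often in short stretches only, so a probe for a human catalogue entry need not find a transcript in mouse. A probe pair on both strands can measure a transcript and its antisense partner apart, where the labelled material keeps strand.

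The study compared brain RNA of wild-type (WT) mice with that of APP/PS1 mice, a transgenic line carrying human mutant forms of the amyloid precursor protein and presenilin 1, in which amyloid plaques form. All 6 animals were males on the C57BL/6 strain aged 9 months, and no other treatment is given. Each genotype had 3 samples, which the labels call biological replicates. The RNA was freed of ribosomal RNA, copied by random priming into Cy3-labelled cRNA and hybridised in 1 colour. In RNA from a whole tissue, fewer cells of a type and less RNA per cell cannot be told apart.

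Levels are given as log2 signal from the value table, in which every sample had a median of 7.06, and detection as the scanner software's call that a spot lay well above background, which was available for 2 WT and 3 APP/PS1 arrays. A spot's signal depends on its probe sequence, so changes are given between samples of the same probe, and the order of signals between probes served only to pick examples. The 2 scanned WT arrays were on one slide and the 3 APP/PS1 arrays on another, so the slide and the genotype of a sample cannot be told apart in what follows. WT replicates 2 and 3 scattered by 0.0277 (log2) over 14029 bright rows, against 0.106 for each with WT replicate 1 and 0.109 to 0.121 between APP/PS1 samples, and repeated spots of 1 probe on 1 array scattered by a median of 0.0543. Since WT replicates 2 and 3 scattered less than repeated spots do over these bright rows, they were averaged and entered as 1 sample. This leaves n = 2 in WT beside n = 3 in APP/PS1. Dimmer rows were not compared in this way, and there the pair could differ more, as for humanlincRNA2046-_P1 (5.39 and 6.77). Averaging then hides spread within WT. humanlincRNA0034-_P1, at 5.50, 5.70 and 5.29, entered with a WT SD of 0.0035. Over the 37 bright human lincRNA probes WT replicates 2 and 3 scattered by 0.0278, against 0.0958 to 0.218 for the other pairs within a genotype. Their median absolute difference over these probes was 0.07, against 0.09 to 0.14 for the other pairs. The brain label could not be checked, because 0 of 29 marker genes listed for brain cell types had a probe that could be named. Precision is limited throughout by how few arrays there are.

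Detection was considered first. On each scanned array, fewer of the human lincRNA probes than of the other probes were well above background. WT replicate 1 had 442 such probes (36.3%) and WT replicate 2 had 437 (35.9%). APP/PS1 replicates 1, 2 and 3 had 446 (36.6%), 572 (47.0%) and 595 (48.9%). The other probes stood at 69.9% and 68.8% on the WT arrays and at 71.0%, 77.6% and 79.2% on the APP/PS1 arrays. Both strands behaved alike in this respect, with 35.5% to 47.9% of the + strand probes and 35.8% to 49.9% of the - strand probes called across the 5 arrays. No human lincRNA probe was saturated on any array.

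Each APP/PS1 array thus had more of these probes well above background than either WT array. Other spots moved the same way. Of 1200 spots of 20 negative-control probes, 8.75% and 7.0% were called well above background on the WT arrays and 13.0%, 25.1% and 27.6% on the APP/PS1 arrays. Median processed signals of the human lincRNA probes were 8.37 and 8.32 on the WT arrays and 10.4, 14.4 and 14.4 on the APP/PS1 arrays, before scaling between arrays. When a probe was instead counted as detected only above the 95th percentile of the negative-control spots of its own array, the order turned. WT arrays then had 406 (33.4%) and 398 (32.7%) human lincRNA probes detected, and the APP/PS1 arrays had 311 (25.6%), 347 (28.5%) and 353 (29.0%). The part of the negative-control signal in the detection calls was not tested further.

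**Figure D1:**
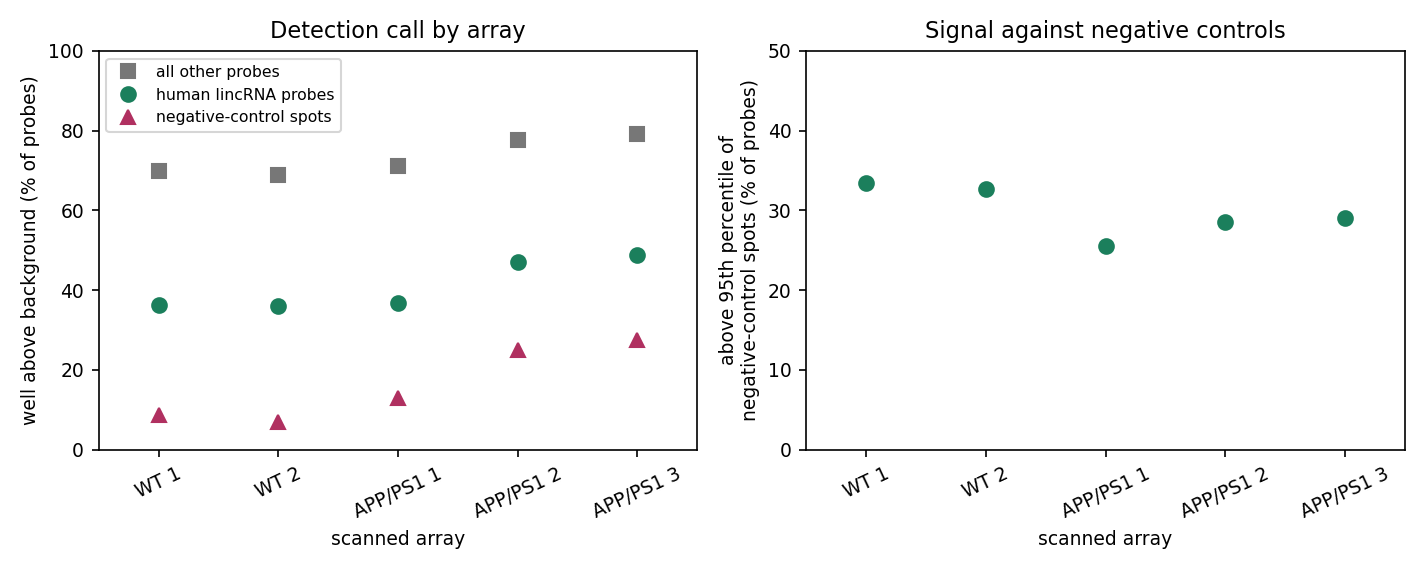
Left, percent of human lincRNA probes (circles, n = 1217), of all other probes (squares) and of negative-control spots (triangles, n = 1200) called well above background on each of the 5 scanned arrays. Right, percent of human lincRNA probes above the 95th percentile of that array's negative-control spots; the left-hand shares are higher on the APP/PS1 arrays and the right-hand ones higher on the WT arrays (33.4% and 32.7%).

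Across arrays, the probes divided into a detected and an undetected group with a smaller number between. There were 368 human lincRNA probes (30.2%) well above background on all 5 scanned arrays, where 64.5% of all ordinary spots and 3.75% of negative-control spots met that call. Another 552 (45.4%) were well above background on none, and 297 on 1 to 4 arrays. All 285 probes that exceeded the 95th percentile of the negative controls on all 5 arrays were among the 368. Leaving out 1 scanned array at a time gave 368 to 392 detected probes. The single-strand entry, humanlincRNA2126-_P1, was detected on no array.

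Probes called in 1 genotype alone were few. There were 24 probes called on all 3 APP/PS1 arrays but on neither WT array (1.97%), where 2.44% of all ordinary spots had that pattern. Both WT arrays and no APP/PS1 array called 0 probes, where the share over all ordinary spots was 0.0967%. Of the 24 probes, 18 were above the 95th percentile of the negative controls on no APP/PS1 array, and 1 was above it on all 3. This probe was humanlincRNA1385-_P1, with processed signals of 9.91 and 9.22 on the WT arrays and 48.6, 48.8 and 48.9 on the APP/PS1 arrays. For a probe that no WT array measured, only a bound can be given, which sets the APP/PS1 mean against the dimmest signal that each WT array called well above background, or against the probe's WT signal where that is higher. By that bound the APP/PS1 level of humanlincRNA1385-_P1 was at least 2.18-fold higher, with log2 means after scaling of -5.41 for the WT spots, which were not well above background, and -3.39 in APP/PS1. No p is given for this probe or the next 4, since the calls that chose them come from the arrays compared.

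The next bounds were smaller. Each of these probes lay below the 95th percentile of the negative controls (40.8, 41.3 and 40.9) on at least 1 APP/PS1 array. humanlincRNA0518+_P1 had a bound of 1.87-fold, from scanner signals of 8.50 and 5.66 in WT to 36.2, 46.3 and 43.7 in APP/PS1. humanlincRNA1563+_P1 had a bound of 1.74-fold, from 16.3 and 10.2 to 39.7, 50.4 and 29.5. humanlincRNA0479+_P1 had scanner signals of 17.7 and 17.2 in WT and 58.0, 34.3 and 45.0 in APP/PS1. Its bound over the 5 scanned arrays was 1.92-fold, but in the value table, where WT replicate 3 (4.88) lay above APP/PS1 replicate 2 (4.82), the group means differed by 1.64-fold, so the bound did not hold over all 6 samples. humanlincRNA1070+_P1, with a bound of 1.58-fold, rested on APP/PS1 replicate 1, which read 97.4 against 23.4 and 19.6 in the other APP/PS1 samples. In the value table its genotypes overlapped, with WT replicate 3 (4.52) above APP/PS1 replicates 2 (4.22) and 3 (3.92). With normexp background correction of the scanner signals, which fits background and signal together, humanlincRNA1385-_P1, humanlincRNA0479+_P1, humanlincRNA0518+_P1 and humanlincRNA1563+_P1 changed sign, to log2 changes of -0.07, -0.15, -0.14 and -0.29. Their bounds thus apply to the processed signals alone.

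The strand of a detected signal was read from the 608 entries with a probe on each strand. The + probe was detected on all 5 arrays in 186 entries and the - probe in 182, so neither sign prevailed. Both strands were detected on all 5 arrays in 65 entries (10.7%), and exactly 1 strand in 238 (39.1%). In 139 of the 238, the other strand was detected on no array: 65 entries had only the + strand and 74 only the - strand. Neither strand was detected on any array in 137 entries (22.5%). Where the + probe was detected on all 5 arrays, the - probe was too in 34.9% of entries, and in 27.7% where it was not. Detection of one strand thus went with little difference in detection of the other, as a description over entries that share the same arrays.

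**Figure D2:**
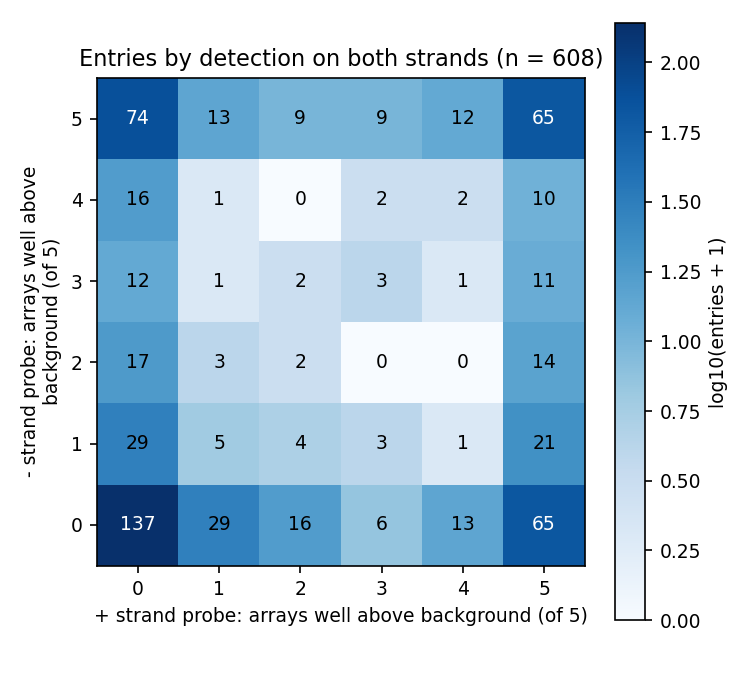
Number of catalogue entries (n = 608) by how many of the 5 scanned arrays called the + strand probe (horizontal axis) and the - strand probe (vertical axis) well above background; darker squares hold more entries, on a log10 colour scale. The corners hold most entries, with 137 detected on neither strand, 65 on both strands on all 5 arrays, 65 on the + strand only and 74 on the - strand only.

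The signals themselves ranged from the floor of the value table to the top of its scale. Mean log2 signals over 6 samples had a median of 5.27 over the 647 probes with a row, quartiles of 4.14 and 6.66, and limits of 2.38 and 14.31. In 129 probes (19.9%) the mean was above the table median. The 368 probes detected on all 5 arrays had a median of 6.47 and quartiles of 5.70 and 7.62.

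The 6 probes with the highest mean processed signal served as examples of clear detection. humanlincRNA2296+_P1 read 14.25, 14.29 and 14.23 in WT and 14.33, 14.32 and 14.42 in APP/PS1, while the opposite probe, humanlincRNA2296-_P1, was well above background on 1 array. humanlincRNA2199+_P1 read 14.01, 13.87 and 13.82 in WT and 13.66, 13.74 and 13.81 in APP/PS1. humanlincRNA0847-_P1 read 13.51, 13.72 and 13.59 against 13.73, 14.04 and 13.78. These 3 probes had groups that differed by little and did not pass the test, with log2 changes of 0.10, -0.19 and 0.27 (limma adjusted p 0.310, 0.176 and 0.173). humanlincRNA2330+_P1 was uneven within WT, at 12.70, 13.68 and 13.81, with 13.13, 13.29 and 13.15 in APP/PS1, and its opposite probe was detected on no array. humanlincRNA2163-_P1 read 13.11, 13.14 and 13.07 against 12.98, 13.17 and 13.04, and both of its strands were detected on all 5 arrays. Neither of these passed. The sixth, humanlincRNA0065-_P1, did, falling from 13.28, 13.34 and 13.33 to 12.84, 12.97 and 12.90 (log2 change -0.40 ± 0.07 SE, adjusted p 0.0205). Its call was lost without WT replicate 1 (0.0753), APP/PS1 replicate 1 (0.0569) or APP/PS1 replicate 3 (0.0677).

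In all, 28 probes of 25 entries had a mean log2 signal of 10 or more, a level chosen after the values were seen. They were 15 + strand and 13 - strand probes. Their opposite probes were detected on all 5 arrays in 11 cases, on 1 to 4 arrays in 7 and on none in 10. For humanlincRNA1513-_P1, humanlincRNA0806+_P1, humanlincRNA2330+_P1 and humanlincRNA2242+_P1, among others, the opposite strand gave no signal above background. For humanlincRNA0318 and humanlincRNA2397, both strands were among the 28.

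Among probes detected on all 5 arrays with a mean above the table median, the 3 steadiest were humanlincRNA1739+_P1, humanlincRNA2296+_P1 and humanlincRNA2163-_P1. humanlincRNA1739+_P1 read 8.64, 8.68 and 8.58 in WT and 8.60, 8.66 and 8.54 in APP/PS1, a range of 0.14 over 6 samples. Others varied more within a genotype than between genotypes. Over the 368 probes the median range was 0.25 within WT and 0.27 within APP/PS1, and the range reached 1 (log2) or more in 12 probes within WT and in 18 within APP/PS1. The widest of these, named after their values were seen, was humanlincRNA1921+_P1, at 8.65, 8.35 and 8.39 in WT and 6.65, 8.24 and 8.40 in APP/PS1, where replicate 1 alone was low. humanlincRNA0341-_P1 had the same pattern, at 7.69, 7.29 and 7.35 in WT and 5.58, 7.0 and 7.30 in APP/PS1.

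The comparison the design implies, APP/PS1 against WT, was fitted with limma over all 48436 rows of the table, with Benjamini-Hochberg adjustment over all of them. The 368 probes detected on all 5 arrays carry the account, because the filter behind the rows of the table is not given and a probe that no array of a genotype detected has no measured fold. Of the 368, 95 (25.8%) passed an adjusted p of 0.05, against 33.6% of all rows detected on all 5 arrays. There were 20 that rose (5.43%, against 15.1% of those rows) and 75 that fell (20.4%, against 18.5%). The median log2 change of the 368 was -0.21, and 68.8% of them had a change below 0. The same values over all rows detected on all 5 arrays were -0.05 and 54.9%. Sample by sample, the median log2 signal of the 368 was 6.55, 6.59 and 6.57 in WT and 6.35, 6.41 and 6.44 in APP/PS1, while that of all such rows was 7.94 in each WT sample and 7.93 in each APP/PS1 sample. The genotypes did not overlap in either median. In scanner signals the median log2 change of the 368 was -0.12, against -0.0038 over all probes detected on all 5 arrays.

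Over all 647 probes with a row, 125 (19.3%) passed, where 30.1% of all rows did, and 522 did not. Of the 125, 35 rose (5.41%, against 14.2% of all rows) and 90 fell (13.9%, against 15.9%). Rises were thus 28.0% of the calls, against 47.1% over all rows. No WT array detected 15 of the 35 rises, and no APP/PS1 array detected 6 of the 90 falls, so these have no measured fold. Calls by strand were 19 rises and 47 falls on the + strand and 16 rises and 43 falls on the - strand, with median log2 changes of -0.15 and -0.12. In 267 probes (41.3%) the sample values of the genotypes did not overlap, where this held for 56.3% of all rows. APP/PS1 was higher in 82 of them (12.7%, against 25.8%) and lower in 185 (28.6%, against 30.6%).

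With fewer samples, fewer probes passed, among these and over all rows. Leaving out WT replicate 1 left 40 calls (19 rises and 21 falls), where 11.8% of all rows passed. That fit has 1 WT sample, the average of replicates 2 and 3, which is assumed to vary like the APP/PS1 samples. Leaving out APP/PS1 replicate 1 left 80 calls, where 18.9% of all rows passed. They were 30 rises (against 9.26% of all rows) and 50 falls (against 9.61%). Without APP/PS1 replicate 2 there were 60 (against 15.3%), with 15 rises (against 7.84%) and 45 falls (against 7.48%). Without replicate 3 there were 61 (against 15.8%), with 17 rises (against 8.04%) and 44 falls (against 7.78%). With WT replicates 2 and 3 kept apart, 192 probes passed, where 41.8% of all rows did. Of these, 55 were higher (against 19.4% of all rows) and 137 lower (against 22.4%). The share of rises among calls moved with the processing. Recentring the table gave 27.8% and quantile normalization of the scanner signals 25.9%. The share was 41.3% in scanner signals scaled to their 75th percentile (50 of 121, against 55.4% over all probes), 21.5% when only probes detected on all 5 arrays entered the fit (29 of 135, against 44.5%), and 2.74% after normexp background correction (2 of 73, against 42.8%). In that fit of detected probes, 42.4% of all rows passed. Under normexp the median of all probes moved to -0.22 and that of the human lincRNA probes to -0.40. Under each of these settings the share of rises was lower in the human lincRNA probes than over all probes.

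Level and direction went together in part. Of the 129 probes above the table median, 48 passed (37.2%, against 38.9% of all rows above it), 8 higher (against 17.7% of those rows) and 40 lower (against 21.2%). Of the 518 at or below the median, 77 passed (14.9%, against 21.4% of such rows), 27 higher (against 10.8%) and 50 lower (against 10.6%). The 28 probes with a mean log2 signal of 10 or more included 11 that fell, and the rest did not pass. The share over all rows at that level was not computed, so this count cannot be read as particular to these probes. Among the probes detected on all 5 arrays, the 75 falls had a median log2 change of -0.57, with 40 under 1.5-fold and 6 at 2-fold or more (1.63% of the 368, against 1.57% of all such rows). The 20 rises had a median of 0.70, and 2 were at 2-fold or more (0.543%, against 2.75%). In scanner signals, 19 of the 20 rises and 64 of the 75 falls passed in the same direction. These signals come from the same arrays as the table values that chose the probes, so this checks the processing alone.

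**Figure D3:**
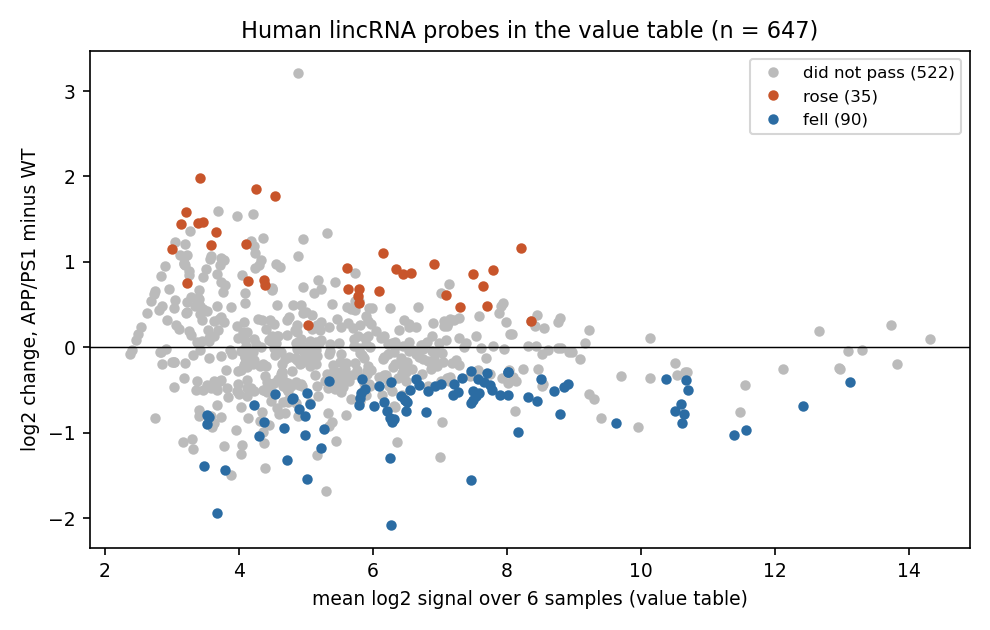
Log2 change from WT to APP/PS1 (vertical axis) against mean log2 signal over 6 samples (horizontal axis) for the 647 human lincRNA probes with a row in the value table; orange points are the 35 that rose, blue points the 90 that fell and grey points the 522 that did not pass in limma. Most rises of 2-fold or more lie at low signal, where the WT arrays did not detect the probe. Above a mean of 10 the called points are the 11 falls, a count without a share over all rows to set beside it.

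Just inside the threshold were humanlincRNA0290+_P1 (log2 change 0.79, adjusted p 0.0470), humanlincRNA0255+_P1 (0.91, 0.0478) and humanlincRNA0459+_P1 (0.31, 0.0494). Just outside it were humanlincRNA2333+_P1 (-0.46, 0.0501), humanlincRNA1159+_P1 (-0.77, 0.0507) and humanlincRNA0848-_P1 (-0.57, 0.0508). The largest log2 change of all, named after its value was seen, did not pass. It was 3.21 for humanlincRNA0956-_P1 (adjusted p 0.369), which read 2.41, 4.23 and 3.59 in WT and 4.32, 10.96 and 3.82 in APP/PS1. APP/PS1 replicate 2 alone was high there, in a spot that the scanner software had marked as non-uniform, and without that spot the log2 change in scanner signals was 0.91 (adjusted p 0.279).

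Among probes detected on all 5 arrays, the largest rise was that of humanlincRNA1016-_P1. It read 7.74, 7.56 and 7.54 in WT and 8.78, 8.82 and 8.81 in APP/PS1, with no overlap. The log2 change was 1.16 ± 0.08 (SE), or 2.23-fold, with an adjusted p of 0.0034. humanlincRNA0055-_P1 rose 2.14-fold, from 5.67, 5.77 and 5.36 to 6.52, 6.91 and 6.72. humanlincRNA1230-_P1 rose 1.81-fold, from 7.15, 6.99 and 7.02 to 7.88, 8.05 and 7.88. humanlincRNA1505+_P1 rose 1.82-fold, from 6.08, 6.05 and 6.32 to 6.90, 7.09 and 7.01. humanlincRNA0183-_P1 rose 1.82-fold, from 5.89, 6.16 and 6.07 to 6.87, 6.95 and 6.78. In these 5 probes the APP/PS1 samples lay close together above the highest WT sample. The call was kept when any 1 APP/PS1 sample was left out, and the direction was kept without WT replicate 1. Leaving out WT replicate 2 or 3 kept the other, so those fits test little where the pair was nearly identical, as over bright rows. At dimmer probes the pair could differ more (5.77 and 5.36 for humanlincRNA0055-_P1). No fit left out both. The adjusted p values of these 5 probes in the main limma fit were between 0.0034 and 0.0090.

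The other 5 of the 10 largest rises had a wider spread in WT or stood nearer the threshold. humanlincRNA1050-_P1 rose from 6.14, 6.50 and 6.76 to 7.09, 7.39 and 7.62, a log2 change of 0.98. humanlincRNA0506+_P1 rose from 4.80, 5.54 and 5.28 to 5.82, 6.19 and 6.09, a change of 0.93. humanlincRNA0399+_P1 rose from 6.12, 5.62 and 5.81 to 6.82, 6.94 and 6.74, a change of 0.92. Each kept its groups apart, but by a gap smaller than the spread within WT in the first and the second. humanlincRNA0255+_P1 rose from 7.67, 7.04 and 7.14 to 8.56, 8.11 and 8.20, a change of 0.91. humanlincRNA0191+_P1 rose from 6.99, 7.36 and 7.64 to 8.02, 8.0 and 7.87, a change of 0.72. For humanlincRNA0255+_P1 and humanlincRNA0191+_P1, too, the gap between the genotypes was smaller than the spread within WT. The adjusted p values of these 5 probes in limma ran from 0.0161 to 0.0478. The call of humanlincRNA1050-_P1 was lost without WT replicate 1 or 2 or APP/PS1 replicate 2 or 3 (log2 change 0.74 to 0.97, adjusted p 0.0584 to 0.135). That of humanlincRNA0399+_P1 was lost without any 1 APP/PS1 sample (0.86 to 0.96, adjusted p 0.0503 to 0.0576). humanlincRNA0506+_P1 and humanlincRNA0255+_P1 lost theirs without any 1 sample other than WT replicate 2. Their changes were then 0.62 to 1.03 (adjusted p 0.0658 to 0.115) and 0.78 to 1.20 (0.0501 to 0.109). humanlincRNA0191+_P1 lost its call without any 1 sample other than WT replicate 3 (0.46 to 0.77, adjusted p 0.0770 to 0.111).

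Of the 10 rises, 2 still passed after normexp background correction: humanlincRNA1016-_P1, at a log2 change of 0.88, and humanlincRNA1230-_P1, at 0.58. Another 7 kept their direction without passing, and humanlincRNA0506+_P1 changed sign, to -0.05.

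Of the falls detected on all 5 arrays, the largest was that of humanlincRNA2257-_P1. It read 7.34, 7.29 and 7.30 in WT and 4.85, 5.09 and 5.77 in APP/PS1, so that WT was tight and APP/PS1 spread. The log2 change was -2.08 ± 0.30 (SE), a fall of 4.23-fold, with an adjusted p of 0.0120, and of 0.0639 without WT replicate 1. After normexp correction the change was -1.21, and it still passed. On APP/PS1 replicates 1 and 2 its signals of 29.4 and 40.9 lay below the 95th percentile of the negative controls (40.8 and 41.3). Its APP/PS1 level thus ran into the range of the negative controls. humanlincRNA0219+_P1 fell by 1.56 on the log2 scale, from 8.21, 8.24 and 8.27 to 6.48, 6.85 and 6.70 (adjusted p 0.0043). humanlincRNA0671+_P1 fell by 0.99, from 8.64, 8.75 and 8.60 to 7.63, 7.63 and 7.73 (adjusted p 0.0032). Both had no overlap by a wide margin. The other 3 had high signals and tight groups. humanlincRNA1300-_P1 went from 12.01, 11.85 and 11.80 to 10.90, 10.81 and 10.96 (log2 change -1.03). humanlincRNA1513-_P1 went from 12.02, 12.06 and 12.05 to 11.09, 11.01 and 11.13 (-0.96). humanlincRNA0806+_P1 went from 11.07, 11.10 and 11.01 to 10.10, 10.19 and 10.23 (-0.89). These last 5 probes kept their call when any 1 APP/PS1 sample was left out and after normexp correction. They kept their direction without WT replicate 1. Leaving out WT replicate 2 or 3 again kept the other of that pair.

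The other 4 of the 10 largest falls kept their direction but lost their call in some of the fits with 1 sample fewer. Of these, humanlincRNA0791+_P1, humanlincRNA0034-_P1 and humanlincRNA1992+_P1 were above the 95th percentile of the negative controls on no APP/PS1 array. Their APP/PS1 levels thus lay within the range of the negative controls. humanlincRNA1527+_P1 fell from 7.43, 6.53 and 6.52 to 5.43, 5.90 and 5.72, with WT replicate 1 the highest sample (log2 change -1.29). humanlincRNA0791+_P1 fell from 6.12, 5.70 and 5.52 to 4.79, 4.97 and 4.29 (-1.18). Either call was lost without WT replicate 1 or any 1 APP/PS1 sample. The change of humanlincRNA1527+_P1 was then -0.84 without WT replicate 1 and down to -1.40 in the others (adjusted p 0.0866 to 0.108), and that of humanlincRNA0791+_P1 lay between -0.93 and -1.32 (0.0625 to 0.141). humanlincRNA0034-_P1 fell from 5.50, 5.70 and 5.29 to 4.89, 4.24 and 4.30 (-1.02). Its call was lost without WT replicate 1 or APP/PS1 replicate 2 or 3, at changes of -1.02, -0.90 and -0.93 (0.0858 to 0.125). humanlincRNA1992+_P1 fell from 5.41, 5.80 and 6.16 to 4.86, 4.86 and 4.51 (-0.95). Its call was lost without any 1 APP/PS1 sample (-1.01 to -0.83, adjusted p 0.0769 to 0.0928) and after normexp (0.0513). The other 9 of the 10 largest falls still passed after normexp.

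**Figure D4:**
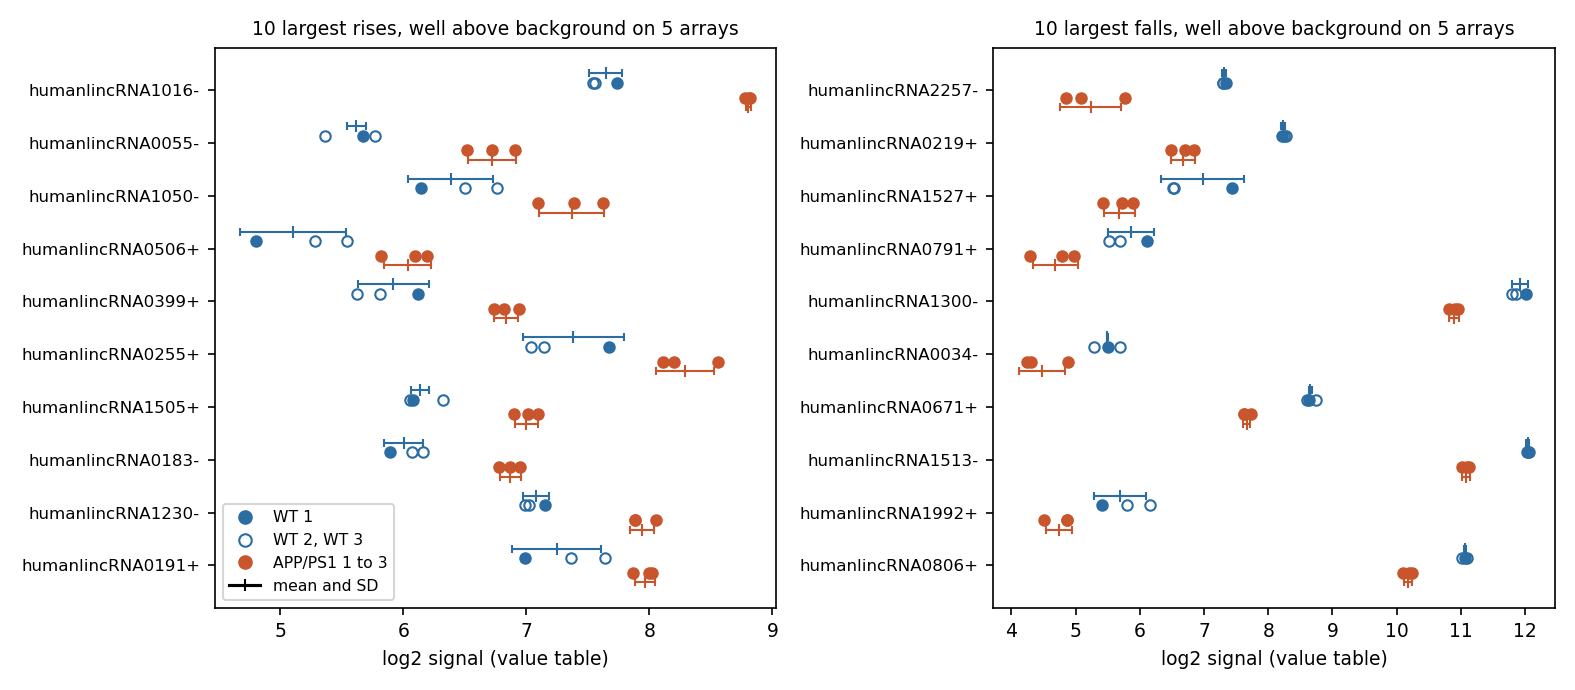
Log2 signal of each sample for the 10 largest rises (left) and the 10 largest falls (right) among human lincRNA probes detected on all 5 arrays; filled blue points are WT replicate 1, open blue points WT replicates 2 and 3, orange points the 3 APP/PS1 samples, and bars the mean and SD with WT replicates 2 and 3 counted as 1 sample (n = 2 and 3). No probe shown has overlapping genotypes; humanlincRNA1016- and humanlincRNA0671+ are among the tightest and humanlincRNA2257- spans 4.85 to 5.77 in APP/PS1.

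Change was then compared between the strands of an entry. Both strands had a row in the value table for 189 entries. Both passed in 8 of these (4.23%, against 7.57% of all 1454 strand pairs of the array with both rows). In 57, 1 strand passed (30.2%, against 39.1%), and neither did in 124. The log2 changes had the same sign on both strands in 95 entries (50.3%, against 53.5% of all pairs), and across the 189 entries they correlated at -0.02 (Pearson) and 0.02 (Spearman). Over the 65 entries with both strands detected on all 5 arrays these values were 0.08 and 0.06. These correlations run across entries measured on the same arrays and are descriptions only.

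In 6 of the 8 entries with both strands called, both fell: humanlincRNA0324, humanlincRNA0538, humanlincRNA0671, humanlincRNA1204, humanlincRNA1527 and humanlincRNA2274. They made up 3.17% of the 189 entries, where 3.65% of all 1454 strand pairs fell on both strands. In humanlincRNA0671 the - probe read 8.85, 8.75 and 8.65 in WT and 8.23, 8.09 and 8.13 in APP/PS1, a change of -0.63 beside the -0.99 of the + probe given above. The - call was lost without WT replicate 1 (adjusted p 0.0561). In humanlincRNA2274 the + probe went from 6.47, 6.36 and 6.22 to 5.94, 5.58 and 5.55 (-0.69), and the - probe from 9.21, 9.08 and 9.07 to 8.70, 8.76 and 8.68 (-0.43). In humanlincRNA0538 the + probe went from 6.27, 6.01 and 6.03 to 5.56, 5.38 and 5.47 (-0.68), and the - probe from 5.4, 5.56 and 5.2 to 4.64, 4.35 and 4.76 (-0.81). Genotypes did not overlap on either strand of these 3 entries. The pairs were singled out after their values were seen.

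The other entries with both strands called, humanlincRNA1230 and humanlincRNA1546, went in opposite directions (1.06% of entries, against 2.34% of all strand pairs). In humanlincRNA1230 the + probe fell from 8.20, 8.13 and 8.11 to 7.92, 7.82 and 7.87 (-0.29, adjusted p 0.0418) and the - probe rose as given above. In humanlincRNA1546 the + probe fell from 6.89, 7.03 and 6.80 to 6.45, 6.46 and 6.47 (-0.44), while the - probe stood at the floor of the table in all 3 WT samples and read 3.44, 3.94 and 4.65 in APP/PS1, where 2 arrays detected it. No WT array measured that - probe.

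Whether strands changed differently was tested in its own limma fit, of the + minus the - log2 signal in each sample, over the same 1454 strand pairs. The fit was added after the data were seen. The difference passed in 10 of the 189 human entries (5.29%), against 6.95% of all 1454 pairs. In 4 of the 10, both strands were detected on all 5 arrays: humanlincRNA1016, humanlincRNA1230, humanlincRNA0740 and humanlincRNA0255. For humanlincRNA1016 the + probe read 8.87, 8.74 and 8.64 in WT and 8.84, 8.66 and 8.81 in APP/PS1, a change of -0.01, while the - probe rose. The change of the + minus the - strand was -1.17 ± 0.18 (SE, adjusted p 0.0353). It was -1.15 ± 0.18 for humanlincRNA1230 (0.0367). For humanlincRNA0740 the + probe fell from 6.77, 6.77 and 6.65 to 5.75, 5.88 and 6.09, and the - probe went from 8.49, 8.72 and 8.72 to 8.86, 9.03 and 8.94 without passing, a difference of -1.17 ± 0.21 (0.0397). For humanlincRNA0255 the + probe rose and the - probe read 5.03, 4.67 and 4.56 in WT and 5.03, 4.06 and 4.51 in APP/PS1, a difference of 1.20 ± 0.23 (0.0484).

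Leaving out APP/PS1 replicate 1, 2 or 3 left 0 of the 189 entries past an adjusted p of 0.05 in limma. At an unadjusted p under 0.05 there were 44, 41 and 32 of the 189, beside 380, 324 and 331 of all 1454 pairs. The same fits called 7, 4 and 2 of all 1454 pairs past the adjusted threshold, so with 1 sample fewer they could call few pairs of any kind. The fit without WT replicate 1 has 1 WT sample and is not counted here. In limma on scanner signals, 13 of 65 entries with both strands detected on all 5 arrays passed, against 27.0% of 670 such pairs. The 4 entries named here were among them (adjusted p 0.0040, 0.0048, 0.0100 and 0.0115). These signals come from the same arrays as the table values that chose the 4, so this checks the processing alone. In the other 6 of the 10 entries (humanlincRNA2296, humanlincRNA0518, humanlincRNA1563, humanlincRNA1422, humanlincRNA1546 and humanlincRNA1385) at least 1 strand was not detected on all 5 arrays. In all of these but humanlincRNA2296, at least 1 strand was detected on no WT array, so the strand difference has no measured size.

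Of those 6, humanlincRNA1385 and humanlincRNA0518 were also among the pairs with the smallest p on a single strand. That p served only to pick them, since no WT array detected the strand that passed. In humanlincRNA1385 the + probe went from 4.47, 4.66 and 4.89 to 3.26, 2.52 and 4.36 without passing, and it was detected on 2 arrays, while the - probe read 3.69, 3.71 and 3.54 in WT and 5.56, 5.35 and 5.36 in APP/PS1. In humanlincRNA0518 the + probe read 3.49, 3.11 and 3.31 in WT and 5.14, 5.27 and 5.19 in APP/PS1, and the - probe went from 3.95, 4.16 and 4.14 to 2.37, 3.34 and 3.63 without passing. The smallest p of any human lincRNA probe was that of humanlincRNA1751+_P1, at the floor of 2.41, 2.44 and 2.43 in WT and at 4.25, 4.46 and 4.52 in APP/PS1. It was detected on 2 APP/PS1 arrays and no WT array, exceeded the 95th percentile of the negative controls on none, and changed sign after normexp correction (log2 change -0.27). Its opposite probe was detected on no array, like that of humanlincRNA1513-_P1.

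**Figure D5:**
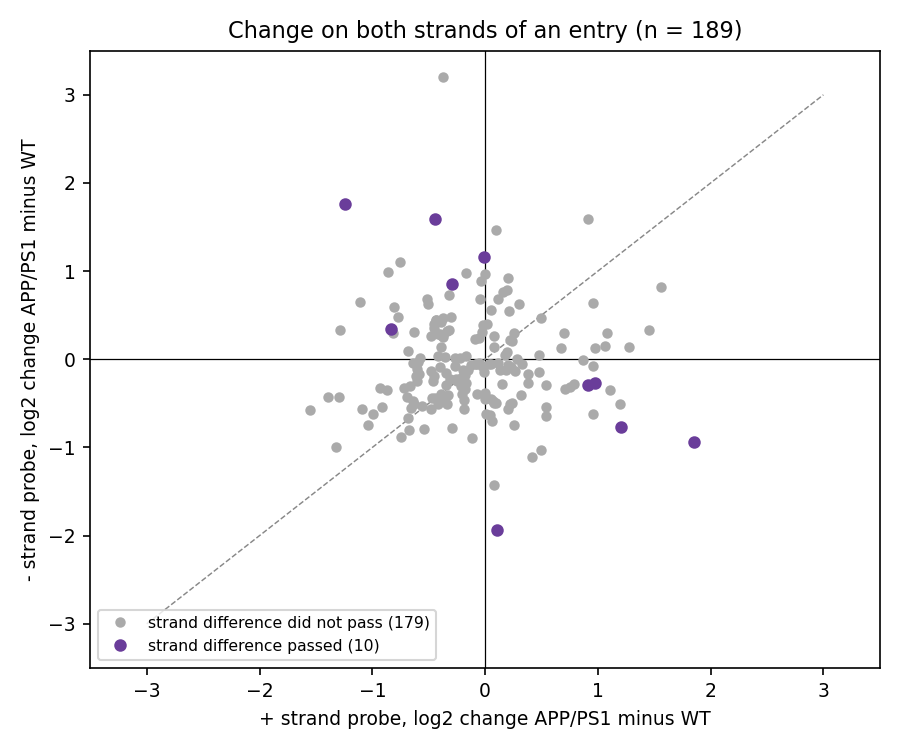
Log2 change from WT to APP/PS1 of the - strand probe (vertical axis) against that of the + strand probe (horizontal axis) for the 189 entries with both strands in the value table; purple points are the 10 entries whose strand difference passed in limma and the dashed line marks equal change. Points spread over all 4 quadrants, and 95 of 189 entries have the same sign on both strands.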

How the data were processed

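Total brain RNA of 3 WT and 3 APP/PS1 mice was hybridised in 1 colour to an array built on the mm9 genome, per the file headers. The deposited scanner files hold spot intensity from Agilent Feature Extraction (11.0.1.1, per the submitters' processing notes); that of WT replicate 3 was not used here. The authors deposited a value table of log2 signal, whose normalization and row filter are not given in the sources used here. Its columns correlated with the scanned arrays' log2 processed signal at 0.9987 or more over the human lincRNA probes, which set its scale and direction.

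Table rows were tied to probes by spot number. limma 3.58.1 in R 4.3.3 (lmFit, eBayes, two-sided, Benjamini-Hochberg over all rows, threshold 0.05) tested APP/PS1 against WT, with WT replicates 2 and 3 averaged, after a check on simulated data. The scanner fit took the log2 of the processed signal, scaled to the 75th percentile of each array, non-uniform spots left out, for probes well above background on at least 2 arrays. Normexp used an offset of 50.

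Named probes were, among those well above background on all 5 arrays, the 10 largest rises and falls without overlap, the 6 brightest and the 3 steadiest; up to 5 probes per direction detected on every array of 1 genotype only; and 6 strand pairs with the smallest p. The members, lists and rules were chosen with earlier results of these data known. Alternatives covered scaling, background, filters, variance model, threshold, a block on the replicate number and fits without each sample in turn. No fit left out WT replicates 2 and 3 together.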

Additional observations from a re-analysis of the deposited data

How the results depend on the processing

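The 125 calls (35 rises, 90 falls), the 10 strand differences and the median log2 change of -0.13 were recomputed under each alternative. Keeping WT replicates 2 and 3 apart gave 192 calls (29.7%, against 41.8% of all rows). These were 55 rises (against 19.4%) and 137 falls (against 22.4%). The same fit gave 30 strand differences in the 189 entries, where 19.9% of all 1454 pairs passed. Normexp background correction gave 73 calls (13.3%, against 17.1% of all its probes), 2 rises (against 7.32%) and a median of -0.40 (against -0.22). The median was -0.031 over the 550 probes in the scanner fit, against 0.039 over all its probes. It was -0.21 over the 368 probes detected on all 5 arrays, against -0.05 over all such rows. An unadjusted p under 0.05 with a 2-fold change gave 39 calls (against 6.66% of all rows), 19 rises, 20 falls and 27 strand differences (against 14.6% of all pairs). Leaving out each sample in turn gave 40 to 123 calls, 15 to 31 rises, 21 to 92 falls and 0 to 10 strand differences. The looser scanner call of a positive and significant signal put 603 probes above background on all 5 arrays, against 368.

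Deviations from the genotype means were not shared between samples of one number (correlations 0.07, -0.08 and -0.07), so the numbers do not pair them. The fit with the replicate block gave 53 rises (against 15.0% of all rows) and 16 strand differences (against 9.28% of all pairs).

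Of the 37 named probes with a row, 25 passed in the main fit. Of the 37, 14 kept their direction and stayed either passed or not passed under every alternative run. That count includes probes that did not pass in the main fit, so it is not a count of changes that held. After normexp, 2 of the 10 largest rises and 9 of the 10 largest falls still passed. Normexp reversed humanlincRNA0479+_P1 (-0.15), humanlincRNA0506+_P1 (-0.0524), humanlincRNA0518+_P1 (-0.14), humanlincRNA1385-_P1 (-0.0733), humanlincRNA1563+_P1 (-0.29), humanlincRNA1751+_P1 (-0.27) and humanlincRNA2330+_P1 (0.14). Without single samples, humanlincRNA2330+_P1 ranged from -0.555 to 0.00. humanlincRNA1016+_P1 was 0.02 with WT replicates 2 and 3 apart, with or without the replicate block, and ranged from -0.045 to 0.08 without single samples. Neither of these last 2 probes passed the test. The cause of these moves was not tested. Signal over background limits the probes not detected on all 5 arrays.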
